A study of Mus musculus with 6 samples.

Results

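The EGR and NR4A families supply 6 transcription factors that T cells switch on within minutes of antigen receptor signalling: Egr1, Egr2, Egr3, Nr4a1, Nr4a2 and Nr4a3. These 6 genes were chosen by symbol from the 24470 genes of the deposited table, and all 6 were present and passed the filter on low counts that kept 11666 genes for testing. RNA came from naive CD4+ T cells, purified by magnetic sorting (MACS). The donors were male mice of the C57BL/6J strain, and the cells came from the spleen and from lymph nodes that drain the skin. No age of the animals is stated. Every sample had been stimulated for 6 h on immobilised antibodies to CD3, which triggers the T cell receptor, and to CD28, which gives a costimulatory signal. The treated group (3 samples) also received recombinant mouse CCL19, a chemokine read by the receptor CCR7, and the control group (3 samples) received the antibodies alone. Because both groups were stimulated, the comparison asks what the chemokine adds to an ongoing activating signal, and the step from rest to stimulation was not measured here. The labels do not state whether replicates were separate animals or cultures. A p-value here sets the difference between groups against a spread estimated from these samples, and that spread may be technical.

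The EGR proteins are zinc finger factors that bind GC-rich DNA. Their genes are classical targets of the ERK pathway, through serum response factor and its ETS partners at CArG boxes. EGR2 and EGR3 are known in T cells both for driving activation and for restraining it, together with the corepressors NAB1 and NAB2. The NR4A proteins are orphan nuclear receptors without a classical hormone ligand, and calcium signals acting through MEF2 and CREB are known to induce them. Nr4a1, which encodes NUR77, is widely used as a readout of how strongly the T cell receptor has been engaged, and Nr4a2 (NURR1) and Nr4a3 (NOR1) share its DNA-binding domain.

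Of the 6 genes, 4 had a promoter entry in RefSeq (GRCm38.p6, the assembly called mm10) at the start site of the deposited gene model. Stretches from the 250 bases upstream of the start are shown for these 4, and they reach the start in all but Nr4a3. Capitals mark the TGACG core of the cAMP response element on either strand (read as CGTCA on the other strand), the CArG box of Egr2 and the MEF2 box of Nr4a2. Egr2 is shown for chr10:67537619-67537868, plus strand, Nr4a1 for chr15:101266596-101266845, plus strand, Nr4a2 for chr2:57124004-57124253, minus strand, and Nr4a3 for chr4:48045055-48045152, plus strand. The Nr4a3 stretch is shorter because the other 152 of its 250 upstream bases lie in annotated exons. It covers positions -250 to -153, the part of the window farthest from the start.
Egr2: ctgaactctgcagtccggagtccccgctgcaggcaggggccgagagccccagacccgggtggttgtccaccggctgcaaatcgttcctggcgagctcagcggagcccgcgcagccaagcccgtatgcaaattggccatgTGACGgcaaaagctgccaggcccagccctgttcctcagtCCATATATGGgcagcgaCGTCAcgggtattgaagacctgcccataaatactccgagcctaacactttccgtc
Nr4a1: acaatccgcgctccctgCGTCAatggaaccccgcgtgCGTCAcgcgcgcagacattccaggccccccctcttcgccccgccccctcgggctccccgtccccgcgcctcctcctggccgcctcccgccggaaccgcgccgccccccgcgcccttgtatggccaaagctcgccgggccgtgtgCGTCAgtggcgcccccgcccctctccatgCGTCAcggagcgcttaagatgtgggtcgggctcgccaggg
Nr4a2: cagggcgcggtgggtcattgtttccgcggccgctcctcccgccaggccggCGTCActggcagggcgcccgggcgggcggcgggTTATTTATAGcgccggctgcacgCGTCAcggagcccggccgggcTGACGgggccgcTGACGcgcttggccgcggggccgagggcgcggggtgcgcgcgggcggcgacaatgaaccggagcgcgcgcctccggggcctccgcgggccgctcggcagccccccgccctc
Nr4a3: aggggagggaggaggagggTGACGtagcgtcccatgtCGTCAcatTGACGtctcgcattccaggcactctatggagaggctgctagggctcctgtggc
Within 250 bases of the start, TGACG occurred 4 times in each of Nr4a1, Nr4a2 and Nr4a3 and 2 times in Egr2. The fourth match of Nr4a3, at position -147, lies in the exonic bases that are not shown. At least 1 match was found in 17.8% of all 32851 windows of this length in the RefSeq table, which holds several windows for some genes, and in 27.5% of the 11819 windows of tested genes. At least 4 matches were found in 0.137% of all windows and in 0.338% of those of tested genes. The CArG and MEF2 boxes were searched on both strands by their consensus. The CArG box began at position -72 from the Egr2 start and was found in 1.47% of all windows and 1.07% of those of tested genes. The MEF2 box began at position -167 from the Nr4a2 start and was found in 2.92% and 1.4%. It overlaps a TATAAA match on the opposite strand, a motif found in 12.4% and 6.07%. Nr4a1 and Nr4a2 each held 1 match to the EGR site GCGNGGGCG, found on either strand in 4.7% of all windows and 8.81% of those of tested genes. The upstream windows were rich in G and C, at 61.6% for Egr2, 74.4% for Nr4a1, 80.0% for Nr4a2 and 63.6% for Nr4a3. The full cAMP response element TGACGTCA, the NR4A monomer site AAAGGTCA and the AP-1 site TGANTCA were not found in these 4 windows, on either strand, and occurred in 1.55%, 1.34% and 6.75% of all windows. Each match is a description of letters and was not tested for binding.

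The libraries held between 16978736 and 27429898 counts, and the biological coefficient of variation was 8.72%. Levels are given as CPM, counts scaled to a common library size with TMM factors. The 8 markers listed for CD4 T cells were Cd3d, Cd3e, Cd3g, Cd4, Cd28, Lck, Cd5 and Thy1, most of them general T cell genes. They summed to 3272 to 3376 CPM with CCL19 and 3242 to 3487 CPM without it. The 8 B cell markers summed to 17.3 to 24.2 against 22.7 to 26.6 CPM, the 9 myeloid markers to 8.66 to 15.4 against 10 to 15.7 CPM with Fcgr1 at 0, and the 7 dendritic cell markers to 3.06 to 4.21 against 3.79 to 4.67 CPM. The 7 natural killer cell markers summed to 33.5 to 36.5 against 31.7 to 38.4 CPM, the 2 CD8 markers to 12.4 to 17.2 against 14.6 to 15 CPM, and the 6 erythroid markers to 15.6 to 16.8 against 11.8 to 18.5 CPM. Of the 6 stromal and endothelial markers, Pecam1 held nearly all the signal, with a mean of 237 CPM, and the other 5 summed to at most 0.421 CPM, with Pdpn and Ccl21a at 0. The 13 mitochondrially encoded protein genes, 5 of which were at 0 in every library, summed to 9531 to 11833 CPM with CCL19 and 8098 to 10371 CPM without it.

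All 6 members had higher mean levels with CCL19, by 1.15-fold to 1.24-fold, and for each of them the groups overlapped. In bulk RNA such a difference cannot be told apart from a difference in the share of cells that express the gene. edgeR's quasi-likelihood test, adjusted over all genes by the Benjamini-Hochberg method at a threshold of 0.05, called 0 of the 6, as it called 0 of 11666 genes (0%). limma-voom also called 0 of the 6 and 0 of all genes. DESeq2 called 1 member higher, Nr4a2, at an adjusted p of 0.0497, against 6.55% of all genes with a DESeq2 adjusted p called higher. At an unadjusted edgeR p under 0.05 stood 3 of the 6, Egr2, Nr4a2 and Nr4a3, against 27.5% of all tested genes in either direction and 14.5% higher with CCL19. The groups did not overlap for 0 of the 6 and for 29.8% of tested genes. The log2 fold change was above 0 for 6 of 6 members and for 49.8% of tested genes, and the median was 0.25 for the members and -0.00 for all tested genes. The 6 values come from the same libraries, so they are not independent of each other.

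**Figure D1:**
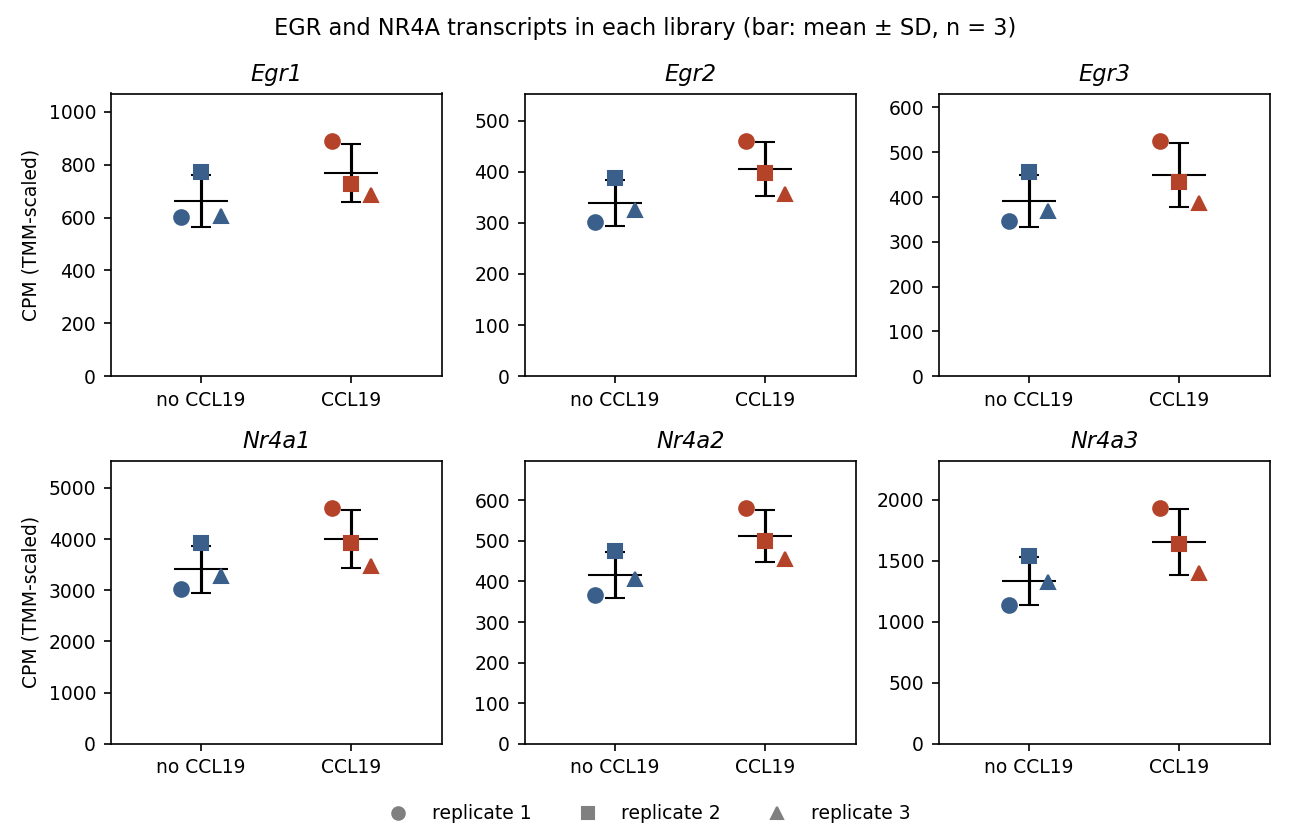
Each panel plots 1 gene, with TMM-scaled CPM on a y axis from 0 and the groups on the x axis, for 3 libraries per group (circle, square and triangle for replicates 1, 2 and 3). Black bars give the mean and SD. In every panel no-CCL19 replicate 2 lies above CCL19 replicate 3, so the groups overlap.

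Among the NR4A receptors, Nr4a1 (NCBI Gene 15370, chromosome 15, 101266846 to 101274795, plus strand, mm10) was the most abundant. It stood at 4606, 3925 and 3479 CPM in CCL19 replicates 1, 2 and 3 and at 3024, 3923 and 3271 CPM in the controls. CCL19 replicate 1 was the highest library and no-CCL19 replicate 1 the lowest, while CCL19 replicate 2 and no-CCL19 replicate 2 were nearly equal. The means were 4003 ± 567 CPM with CCL19 and 3406 ± 464 CPM without it (mean ± SD, n = 3). The log2 fold change was 0.23 ± 0.12 (SE, edgeR adjusted p = 0.207, DESeq2 adjusted p = 0.137), with a 95% interval of 0.99-fold to 1.4-fold.

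Nr4a2 (NCBI Gene 18227, chromosome 2, 57107226 to 57124003, minus strand) stood at 581, 499 and 455 CPM with CCL19 and at 366, 476 and 407 CPM without it. Of the 9 pairings of a CCL19 library with a control, the CCL19 library was higher in 8, and the exception was CCL19 replicate 3 against no-CCL19 replicate 2. The means were 512 ± 64.1 and 416 ± 55.6 CPM (mean ± SD, n = 3). This gave a log2 fold change of 0.30 ± 0.11 (SE, edgeR adjusted p = 0.106), with a 95% interval of 1.04-fold to 1.45-fold. Nr4a2 was the only member in the authors' deposited table of changed genes, where it is listed as higher with CCL19. All 1168 genes of that list matched the DESeq2 calls made here on the same counts, with Nr4a2 at a DESeq2 adjusted p of 0.0497. The list is therefore not separate support.

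Nr4a3 (NCBI Gene 18124, chromosome 4, 48045305 to 48086446, plus strand) had the largest point estimate of the 6. It stood at 1930, 1634 and 1397 CPM with CCL19 and at 1138, 1536 and 1325 CPM without it. The libraries stood in the same order as for Nr4a1 and Nr4a2, from CCL19 replicate 1 down to no-CCL19 replicate 1. The means were 1653 ± 267 and 1333 ± 199 CPM (mean ± SD, n = 3). The log2 fold change was 0.31 ± 0.12 (SE, edgeR adjusted p = 0.127, DESeq2 adjusted p = 0.0615), with a 95% interval of 1.03-fold to 1.49-fold.

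Among the EGR factors, Egr1 (NCBI Gene 13653, chromosome 18, plus strand), the member most directly tied to ERK signalling, stood at 891, 725 and 684 CPM with CCL19 and at 603, 774 and 605 CPM without it. Here no-CCL19 replicate 2 lay above 2 of the 3 CCL19 libraries. The means were 767 ± 110 and 661 ± 98.4 CPM (mean ± SD, n = 3). This gave a log2 fold change of 0.21 ± 0.12 (SE, edgeR adjusted p = 0.25, DESeq2 adjusted p = 0.188), with a 95% interval of 0.975-fold to 1.38-fold.

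Egr2 (NCBI Gene 13654, chromosome 10, 67537869 to 67542188, plus strand) stood at 461, 397 and 357 CPM with CCL19 and at 302, 388 and 326 CPM without it. Only the pairing of CCL19 replicate 3 with no-CCL19 replicate 2 went against the direction of the means, which were 405 ± 52.4 and 339 ± 44.4 CPM (mean ± SD, n = 3). This gave a log2 fold change of 0.26 ± 0.11 (SE, edgeR adjusted p = 0.147, DESeq2 adjusted p = 0.0911), with a 95% interval of 1.02-fold to 1.41-fold.

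Egr3 (NCBI Gene 13655, chromosome 14, 70077445 to 70082613, plus strand) had the smallest point estimate. It stood at 526, 433 and 386 CPM with CCL19 and at 347, 457 and 368 CPM without it, and no-CCL19 replicate 2 was second only to CCL19 replicate 1. The means were 449 ± 71.3 and 391 ± 58.6 CPM (mean ± SD, n = 3). The log2 fold change was 0.20 ± 0.12 (SE, edgeR adjusted p = 0.304, DESeq2 adjusted p = 0.251), with a 95% interval of 0.96-fold to 1.37-fold. Egr4, the remaining member of the EGR family, was near the floor of detection, with 27 to 70 counts per library and 2.04 ± 0.746 against 1.88 ± 0.587 CPM (mean ± SD, n = 3).

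Counting noise was small beside these spreads. The lowest count of any of the 6 in any library was 6003, for Egr2, which gives a counting coefficient of variation of 1.29%. Between replicates of a group the coefficient of variation of the 6 genes ran from 12.5% to 16.2%. No annotated gene in GENCODE M21 overlapped any of the 6 deposited gene spans, on either strand.

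The 6 genes followed nearly the same pattern over the 6 libraries. For Egr2, Nr4a1, Nr4a2 and Nr4a3 the order from high to low was CCL19 replicate 1, CCL19 replicate 2, no-CCL19 replicate 2, CCL19 replicate 3, no-CCL19 replicate 3 and no-CCL19 replicate 1. Egr1 and Egr3 differed from this order in that no-CCL19 replicate 2 stood above CCL19 replicate 2. The highest library exceeded the lowest by 1.48-fold for Egr1, 1.53-fold for Egr2, 1.52-fold for Egr3, 1.52-fold for Nr4a1, 1.59-fold for Nr4a2 and 1.7-fold for Nr4a3.

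The summed level of 7 markers of the naive state, which include the homing receptor Ccr7 and the transcription factors Klf2, Tcf7 and Lef1, ran nearly in the reverse of the order of Nr4a1. It was 3884, 4059 and 4711 CPM in CCL19 replicates 1, 2 and 3 and 5744, 4784 and 4967 CPM in the controls. CCL19 replicate 1 was lowest and no-CCL19 replicate 1 highest, the groups did not overlap, and only the places of CCL19 replicate 3 and no-CCL19 replicate 2 departed from the reverse order. The sum of the 8 CD4 T cell markers, at 3307, 3272 and 3376 against 3487, 3365 and 3242 CPM, did not follow that order. The B cell markers were also lowest in CCL19 replicate 1, at 17.3 CPM, and highest in no-CCL19 replicates 1 and 3, at 26.5 and 26.6 CPM. Pecam1 set the sum of the stromal list, which also ran in the reverse order of Nr4a1, from 190 to 277 CPM. The rest of that list summed to at most 0.421 CPM, so this order is that of Pecam1 and not of stromal markers in general. Which cells the Pecam1 reads came from was not tested. The part of these differences between libraries in the values of the 6 members was not tested.

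**Figure D2:**
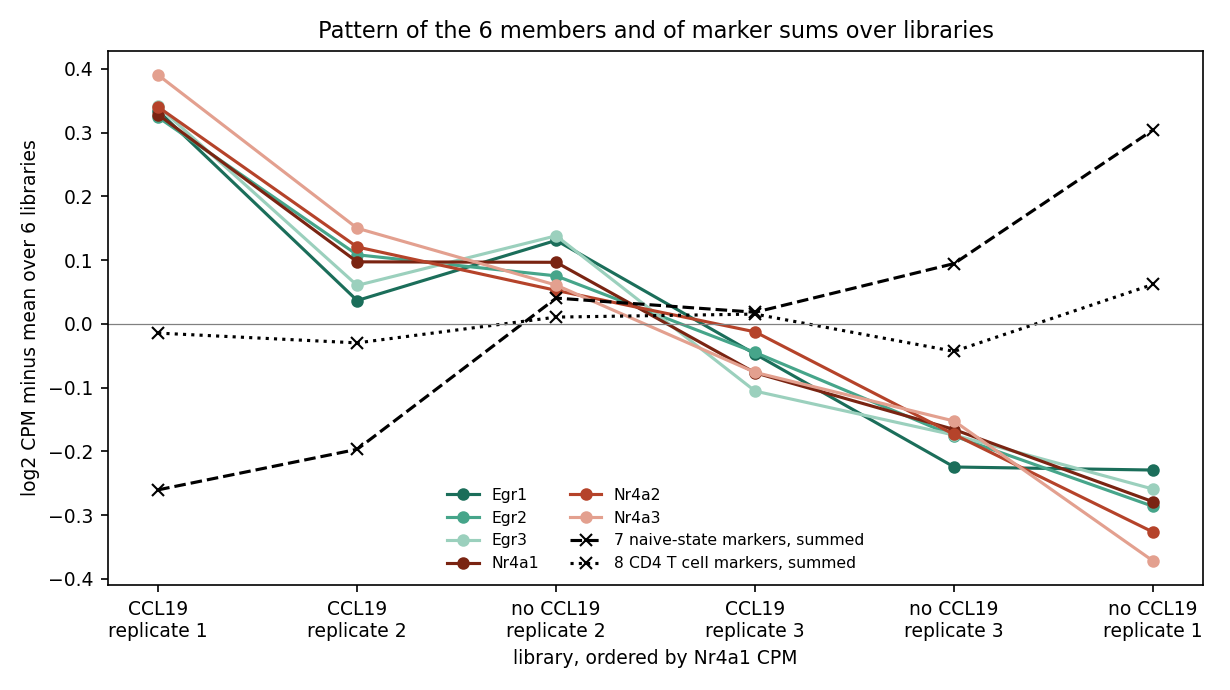
The y axis gives log2 CPM minus the mean over the 6 libraries, and the x axis the libraries in the order of Nr4a1 CPM. Coloured lines are the 6 members, the dashed line is the sum of 7 naive-state markers and the dotted line the sum of 8 CD4 T cell markers. The members descend nearly together, but Egr1 and Egr3 rise from CCL19 replicate 2 to no-CCL19 replicate 2. The naive-state sum runs nearly the other way, from 3884 CPM in CCL19 replicate 1 to 5744 CPM in no-CCL19 replicate 1.

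Single libraries set the size of the difference. Without CCL19 replicate 1 the log2 fold changes of the 6 ran from 0.06 (Egr3) to 0.19 (Nr4a2), and without no-CCL19 replicate 1 from 0.12 to 0.21. Without no-CCL19 replicate 2 they ran from 0.32 to 0.42, and without CCL19 replicate 3 from 0.28 to 0.41. Without CCL19 replicate 3, edgeR called Nr4a2 (adjusted p = 0.0398) and Nr4a3 (adjusted p = 0.0329) higher, against 6.5% of tested genes called higher in that fit. With no filter on low counts it called the same 2 genes, against 5.05% called higher. The DESeq2 call of Nr4a2 was lost without CCL19 replicate 1 (adjusted p = 0.301), CCL19 replicate 2 (0.143), no-CCL19 replicate 1 (0.229) or no-CCL19 replicate 3 (0.109). Without no-CCL19 replicate 2, DESeq2 called all members but Egr3, against 7.02% of genes called higher, and without CCL19 replicate 3 it called all but Egr1 and Egr3, against 9.2%. The point estimates stayed above 0 for all 6 members in each of these fits.

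**Figure D3:**
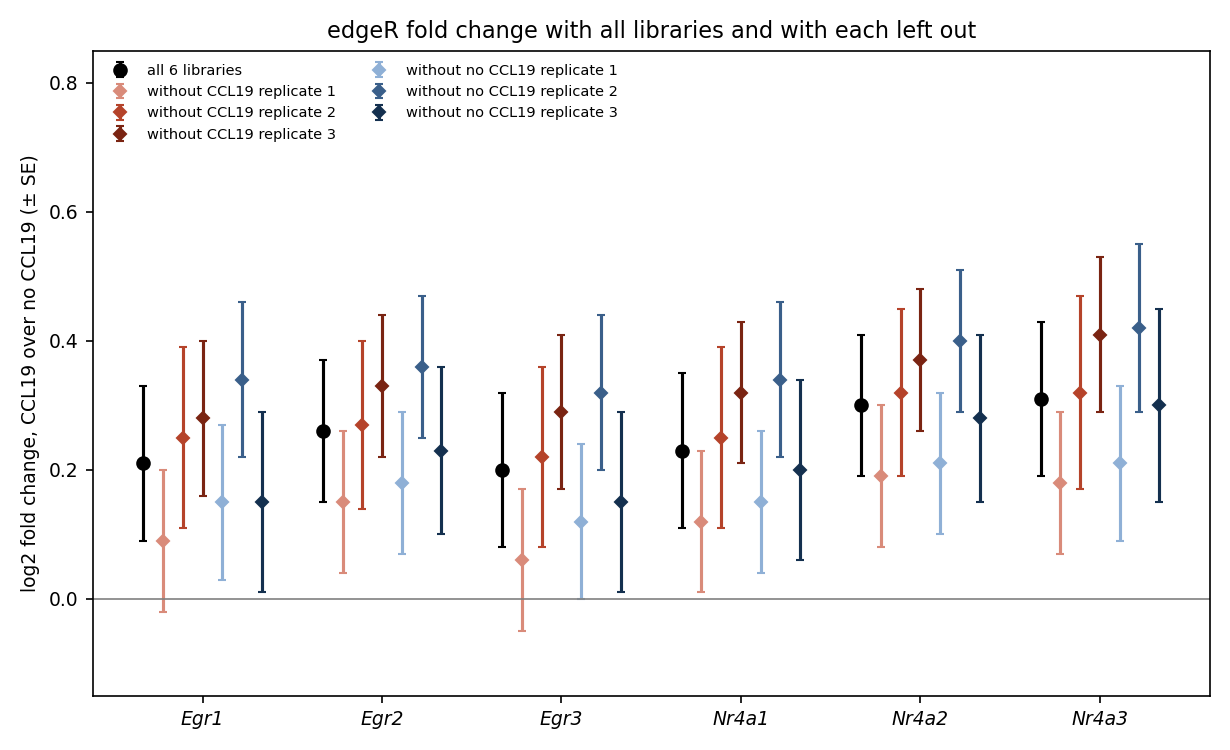
The y axis gives the edgeR log2 fold change of CCL19 over no CCL19 with its SE, and the x axis the 6 genes. Black circles are the fit to all 6 libraries and coloured diamonds the fits with 1 library left out. All estimates lie above 0, and those without CCL19 replicate 1 are the lowest for each gene, from 0.06 to 0.19.

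Base composition differed among the members. The longest annotated transcripts of Egr1 and Nr4a1 held 57.3% and 57% G and C, above 88.4% and 86.8% of tested genes, whereas the other 4 lay between 47.9% and 51.4%, near the median of 49.7%. When edgeR was given an offset per library fitted to GC content and length, Egr1 had a log2 fold change of 0.33 ± 0.11 (SE, edgeR adjusted p = 0.107) and Nr4a1 one of 0.34 ± 0.11 (edgeR adjusted p = 0.107). For Egr2, Egr3, Nr4a2 and Nr4a3 it was 0.28, 0.22, 0.28 and 0.31. With the offset, Nr4a1 and Egr1 thus had the largest estimates of the 6 instead of Nr4a3 and Nr4a2, so the order of fold changes among the members depended on this choice.

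The levels of the 6 transcripts can be set against each other only per length, here as CPM per kilobase of annotated exon. Nr4a1 led with 1141 ± 162 CPM per kilobase with CCL19 and 971 ± 132 without it (mean ± SD, n = 3), and ranked between place 15 and place 28 of 11603 tested genes in each library. Nr4a3 followed at 276 ± 44.6 and 223 ± 33.3 CPM per kilobase, and Egr1 at 171 ± 24.5 and 147 ± 21.9. Nr4a2 (126 ± 15.8 and 103 ± 13.7) and Egr2 (119 ± 15.4 and 99.6 ± 13.1) lay closer together than the SD over libraries, a spread that the genes share, and Nr4a2 was the higher in all 6 libraries. Egr3 was lowest at 102 ± 16.2 and 88.7 ± 13.3 CPM per kilobase, below Egr2 in all 6 libraries. With the length of the longest annotated transcript in place of all exons the order was the same, and Nr4a1 stood at 1568 ± 222 and 1334 ± 182. The deposited span of Egr1, 3750 bases, is shorter than the 4484 exonic bases used. Per kilobase of that span Egr1 stood at 204 CPM with CCL19, below the 276 of Nr4a3 per kilobase of exon. The span of Nr4a3, 41142 bases, is far longer than its exons, and per kilobase of it Nr4a3 stood at 40.2 CPM with CCL19.

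Together the 6 genes took 0.881%, 0.751% and 0.678% of all counts in the CCL19 libraries and 0.587%, 0.757% and 0.638% in the controls. The NR4A genes held most of this, with 0.61% ± 0.0817 and 0.52% ± 0.0683 (mean ± SD, n = 3), and the EGR genes 0.16% ± 0.0212 and 0.14% ± 0.0191. Within each family the shares of reads differed by little more than 1 percentage point between the groups. Nr4a1 took 64.9% ± 0.294 of NR4A reads with CCL19 and 66.1% ± 0.702 without it, Nr4a3 26.8% ± 0.492 and 25.8% ± 0.677, and Nr4a2 8.31% ± 0.198 and 8.08% ± 0.0591. The groups did not overlap for the shares of Nr4a1 (64.7% to 65.3% with CCL19, 65.4% to 66.8% without it) and Nr4a2 (8.17% to 8.54% and 8.02% to 8.14%). Egr1 took 47.3% ± 0.663 and 47.5% ± 0.842 of EGR reads, Egr3 27.6% ± 0.502 and 28.1% ± 0.326, and Egr2 25% ± 0.51 and 24.4% ± 0.626. Ratios of members within a library do not depend on how libraries are scaled. Over the 15 pairs of members, the mean log2 ratio differed between the groups by 0.01 to 0.11, with Egr3 to Nr4a3 moving most, from -1.77 ± 0.071 without CCL19 to -1.88 ± 0.032 with it (mean ± SD, n = 3). The lowest exact permutation p of the 15 was 0.1, 2-sided, the smallest that 3 against 3 allows, and 0.375 after Benjamini-Hochberg adjustment, so no pair could have passed at this size. The groups did not overlap for 4 of the 15 ratios, Egr2 to Nr4a1, Egr2 to Nr4a2, Egr3 to Nr4a3 and Nr4a1 to Nr4a2. Of these, Egr2 to Nr4a1 differed by only 0.026. The share of other gene pairs without overlap was not computed. These ratios and the shares above are built from the same 6 genes and are not independent, so the count is a description only.

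Genes whose log2 CPM ran most like the mean pattern of the 6, among 9896 others with a mean log2 CPM of at least 1, were Itgb2, Sik1, Ctsz, Slc35a4 and Mta2. Over the 6 libraries their Pearson r with that mean lay between 0.9952 and 0.9967, a description that rests on shared libraries, and 761 genes reached 0.9. Itgb2 encodes the beta-2 integrin chain, Sik1 a salt-inducible kinase, Ctsz a lysosomal protease and Mta2 a subunit of the NuRD chromatin complex. Sik1 stood at 230, 202 and 183 CPM with CCL19 and at 164, 205 and 172 CPM without it. Its groups overlapped like those of the members, and its log2 fold change was 0.19 (edgeR adjusted p = 0.245).

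Other early response genes were counted from a list of 28, all of which were tested. edgeR and limma-voom called 0 of them, 8 had an unadjusted edgeR p under 0.05 (6 higher, 2 lower), and DESeq2 called 1 higher and 0 lower of 25 with an adjusted p. Over all genes 27.5% had such an unadjusted p in either direction, 14.5% higher with CCL19, and DESeq2 called 6.55% higher. The count in either direction and the DESeq2 count were near or below these shares, while the 6 higher of 28 lay above 14.5%. The median log2 fold change was 0.09, with 19 of 28 above 0. Myc, which drives growth of activated T cells, was the DESeq2 call, at 921 ± 133 against 685 ± 104 CPM (mean ± SD, n = 3, log2 fold change 0.43, DESeq2 adjusted p = 0.00948). The groups did not overlap for Myc, for 2 of the 28 genes and for 29.8% of all tested genes. Atf3 stood at 16.6 ± 2.84 against 12.5 ± 1.64 CPM, the AP-1 subunit Fosl1 at 56 ± 9.95 against 43.1 ± 7.26 CPM, and the ERK phosphatase Dusp6 at 79.4 ± 11.7 against 63.2 ± 9.25 CPM. None of these 3 passed (DESeq2 adjusted p = 0.0691, 0.055 and 0.0594).

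Genes that act upstream of the Egr and Nr4a promoters had a median log2 fold change of -0.02 over 29 tested of 31 listed symbols, 2 of which are older names of listed genes, with 14 above 0. DESeq2 called 3 lower and 0 higher of 28, against 5.6% of all genes called lower. edgeR and limma-voom called 0, with 4 at an unadjusted edgeR p under 0.05 (27.5% of all tested genes). The 3 lower genes were Mapk3, which encodes the kinase ERK1, at 36.2 ± 2.61 against 45.8 ± 4.06 CPM (log2 fold change -0.34, DESeq2 adjusted p = 0.0197), Mrtfa, a coactivator of serum response factor, at 206 ± 9.09 against 264 ± 25.7 CPM (-0.36, DESeq2 adjusted p = 0.00294), and Hdac5, a histone deacetylase that represses MEF2, at 72 ± 8.15 against 96.5 ± 15.6 CPM (-0.42, DESeq2 adjusted p = 0.01). The CREB family gene Crem stood at 53.9 ± 3.68 against 45.8 ± 4.41 CPM and did not pass (DESeq2 adjusted p = 0.113). Serum response factor itself, Srf, had a log2 fold change of 0.06 and Creb1 of 0.08, both outside the rule for named genes and chosen after their values were seen.

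Of 9 partners and corepressors of EGR and NR4A proteins, 8 were tested, with a median log2 fold change of 0.10. DESeq2 called 1 lower, the retinoid X receptor Rxrb, a dimerisation partner of NR4A1 and NR4A2, at 115 ± 5.19 against 137 ± 10.2 CPM (mean ± SD, n = 3, log2 fold change -0.25, DESeq2 adjusted p = 0.0321). Its relative Rxra stood at 13.6 ± 0.989 against 17.8 ± 2.22 CPM and did not pass (DESeq2 adjusted p = 0.0509). Rcor1 and Trim28, which are corepressors, had log2 fold changes of 0.12 and 0.13. Over all genes DESeq2 called 5.6% lower. edgeR and limma-voom called 0 of the 8, with 2 at an unadjusted edgeR p under 0.05, against 27.5% of all tested genes.

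The list of 19 genes linked to EGR2 and EGR3 in T cells had a median log2 fold change of 0.12, with 13 above 0. DESeq2 called 5 higher and 1 lower of 16 with an adjusted p. edgeR and limma-voom called 0, with 8 at an unadjusted edgeR p under 0.05 (6 higher, 2 lower). The shares over all genes were 6.55% higher and 5.6% lower by DESeq2. At an unadjusted edgeR p under 0.05 they were 27.5% in either direction and 14.5% higher with CCL19. Bhlhe40, a regulator of cytokine production, stood at 68.2 ± 8.15 against 48.2 ± 8.42 CPM (log2 fold change 0.50, DESeq2 adjusted p = 0.00581), and the cell cycle inhibitor Cdkn1a at 85.9 ± 8.39 against 62.2 ± 12.1 CPM (0.47, DESeq2 adjusted p = 0.00972). Fasl, the death receptor ligand, stood at 51.9 ± 3.91 against 40.3 ± 4.08 CPM and Crtam, an adhesion receptor, at 98.8 ± 3.47 against 76.9 ± 12 CPM. The groups did not overlap for these 4, for 11 of the 19 genes and for 29.8% of all tested genes. The other DESeq2 calls were Tnfrsf9 (0.34), which encodes the costimulatory receptor 4-1BB, and Dgka (-0.35), which limits diacylglycerol signalling. The corepressor Nab2, on this list and the previous one, had a log2 fold change of 0.12. These last 3 lie outside the rule for named genes.

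Of 20 genes linked to NR4A proteins, 18 were tested, with a median log2 fold change of 0.03 and 11 above 0. DESeq2 called 4 higher and 0 lower of 18, and edgeR and limma-voom called 0, with 6 at an unadjusted edgeR p under 0.05. Over all genes DESeq2 called 6.55% higher, and 27.5% had such an unadjusted p in either direction, a share near that of this list. All 6 of the list were higher with CCL19, a direction that held 14.5% of all tested genes at that p. Irf4, a transcription factor whose level follows the strength of receptor signalling, stood at 1033 ± 159 against 739 ± 107 CPM (log2 fold change 0.48, DESeq2 adjusted p = 0.00368). Cd200 stood at 48.2 ± 3.19 against 35.4 ± 4.14 CPM, the costimulatory receptor Tnfrsf4 (OX40) at 118 ± 3.76 against 98.9 ± 5.47 CPM and the signalling inhibitor Spry1 at 453 ± 66.6 against 351 ± 47.4 CPM. The groups overlapped for Spry1 and not for the other 3. They did not overlap for 6 of the 18 and for 29.8% of all tested genes. Nothing in these counts shows which factor acts on which gene.

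The DESeq2 calls in these 5 lists, 15 genes in all, also depended on single libraries. Without CCL19 replicate 1 none of the 15 was called, without CCL19 replicate 2 only Irf4, and without no-CCL19 replicate 1 only Irf4 and Mrtfa. Without CCL19 replicate 3 all 15 were called, and without no-CCL19 replicate 2 or replicate 3 it was 14 of them each time. When edgeR corrected each library for base composition and transcript length, the decreases of Rxrb, Mrtfa, Hdac5 and Mapk3 were smaller. Their log2 fold changes were -0.09, -0.23, -0.26 and -0.22, against -0.25, -0.36, -0.42 and -0.34 without the correction. Rxrb then had an edgeR adjusted p of 0.392. Trim28, which was not called, went from 0.13 to 0.27. Genes called higher moved both ways, such as Spry1 (0.37 to 0.47) and Fasl (0.37 to 0.31).

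**Figure D4:**
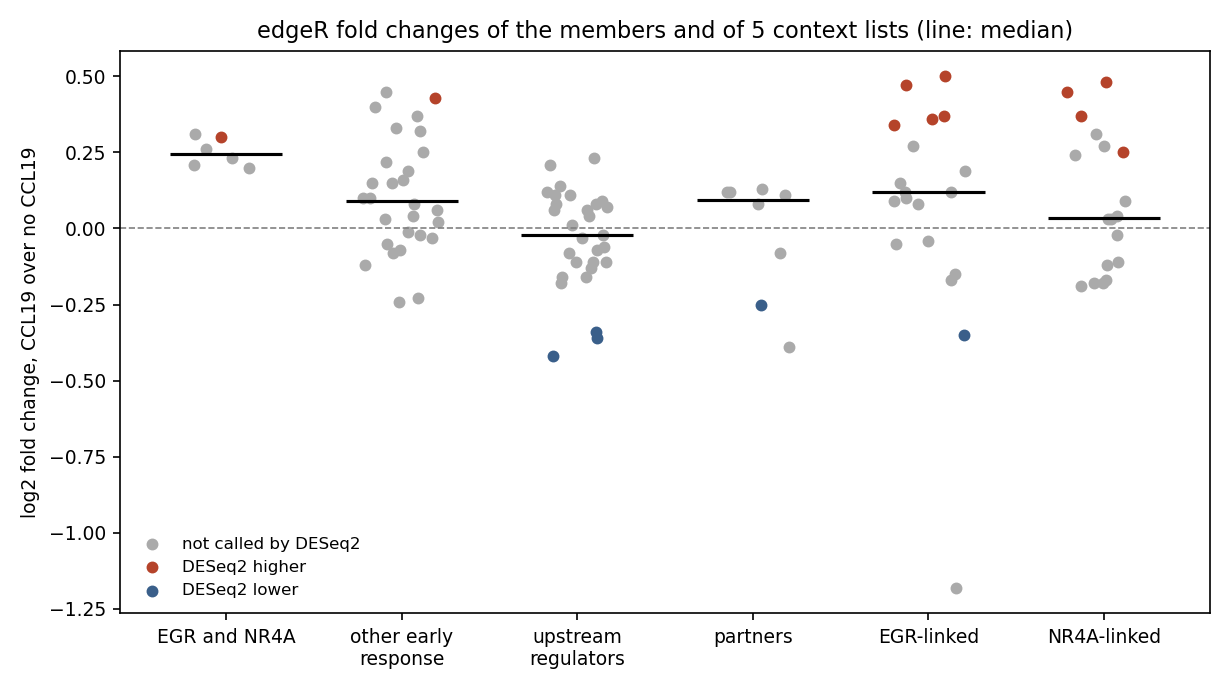
The y axis gives the edgeR log2 fold change of CCL19 over no CCL19 and the x axis the 6 members and the 5 lists, with 1 point per tested gene, red and blue for genes called higher and lower by DESeq2, and a line at each median. The members lie between 0.20 and 0.31, and the medians of the 5 lists between -0.02 and 0.12.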

How the data were processed

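RNA-seq libraries of 3 CCL19 and 3 no-CCL19 samples were analysed. The submitters' processing notes name STAR 2.5, featureCounts 1.5.0-p1, DESeq2 1.28.1 and mm10, and the authors deposited raw counts per gene, with no normalization. How strand and multi-mapping reads were handled is not stated, nor is the annotation. The authors' deposited list of changed genes gives a direction in words. It holds 630 higher and 538 lower genes, and all 1168 matched the DESeq2 calls made here in gene and direction. Groups came from sample titles. A further marker of the naive state is not reported here and was left out of the sum.

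All genes were fitted with edgeR 4.0.16 (quasi-likelihood test, TMM, filterByExpr) in R 4.3.3. Alternatives were DESeq2 1.42.0, with an adjusted p for 9613 genes, limma 3.58.1 and those in the closing section. Intervals use the t distribution of the edgeR fit. Log2 CPM used a prior count of 2. Lengths and GC content came from GENCODE M21. The fits were tested on simulated counts, drawn for each gene separately and so without shifts that genes share across libraries. The members and lists were chosen with earlier results of these data known, the list genes from general knowledge. Named genes are the 6 members, the 4 of smallest edgeR p in each list and the 5 most alike in pattern. Figures were drawn with matplotlib 3.10.9.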

Additional observations from a re-analysis of the deposited data

How the results depend on the processing

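The log2 fold change stayed above 0 for all 6 members in each of 24 alternative fits, 144 values in all, of which 14 crossed the threshold. In the fits that held these 14 calls, 5.05% to 9.2% of all genes were called higher. With no filter on low counts, edgeR called Nr4a2 (0.29, adjusted p = 0.0299) and Nr4a3 (0.31, adjusted p = 0.0269), and DESeq2 called Nr4a2 (0.30). With 1 library left out in edgeR or DESeq2, log2 fold changes ran from 0.09 to 0.35 for Egr1, 0.15 to 0.37 for Egr2, 0.06 to 0.33 for Egr3, 0.12 to 0.35 for Nr4a1, 0.19 to 0.41 for Nr4a2 and 0.18 to 0.43 for Nr4a3. DESeq2 without CCL19 replicate 3 called Egr2 (0.34), Nr4a1 (0.33), Nr4a2 (0.38) and Nr4a3 (0.42). From the same libraries edgeR called Nr4a2 (0.37) and Nr4a3 (0.41). Without no-CCL19 replicate 2, DESeq2 called all members but Egr3. There edgeR gave 0.40 for Nr4a2 and 0.42 for Nr4a3, which did not pass (edgeR adjusted p = 0.0734 and 0.082). The number of genes called was 0 in the edgeR fit, 1600 with no filter, 529 with a robust prior, 1168 by DESeq2 and 178 by DESeq2 with the replicate block. With 1 library left out edgeR called between 0 and 1599 genes, the highest without CCL19 replicate 3. DESeq2 called 55, 123 and 1704 without CCL19 replicates 1, 2 and 3 and 105, 1010 and 1258 without no-CCL19 replicates 1, 2 and 3. edgeR called 1659 genes with both libraries numbered 3 left out. The left-out fits by DESeq2, the DESeq2 block and the omission of both libraries numbered 3 were chosen after seeing the data. The cause of these shifts was not tested.

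The labels do not state whether same-numbered replicates are paired. Deviations of same-numbered libraries from their group mean correlated at -0.164, 0.0814 and -0.0207, and those of other pairs at -0.214 to 0.217. With 3 libraries per group these values cannot decide whether replicates are paired. With the replicate block, edgeR called 0 genes and the log2 fold change was 0.30 for Nr4a2 (adjusted p = 0.201) and 0.31 for Nr4a3 (adjusted p = 0.227). In DESeq2 the block moved Nr4a2 to an adjusted p of 0.121 and kept 5 of the 15 list genes called (Bhlhe40, Cd200, Cdkn1a, Mrtfa and Myc). The number of replicates limits precision here more than depth does.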
